A study of Mus musculus with 6 samples.

Results

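The genes described here are 10 inhibitors that act on MAP kinase signaling or are induced by it: the MAP kinase phosphatase genes Dusp1, Dusp2, Dusp4, Dusp5, Dusp6 and Dusp10, the Sprouty genes Spry1 and Spry2, and the Spred genes Spred1 and Spred2. They were chosen by name from the 20458 gene names of a deposited expression table, after pooled FPKM values of the same table, Dusp1 among them, were known, so their values in this comparison are given as a description with no test. All 10 were found, each as a single entry of the table. RNA was sequenced from follicular B cells, sorted as B220+AA4.1-CD23+CD21lo, of the C57BL/6 strain from 6 mice: 3 had the genotype CD23Cre+Myh9fl/wt (called wt/fl below) and the other 3 had CD23Cre+Myh9fl/fl (fl/fl). Both genotypes carry the CD23Cre transgene, in which Cre is driven by the promoter of Fcer2a, and at least 1 Myh9 allele whose exon 3 lies between LoxP sites, so the comparison group lacks one functional copy of the myosin IIa heavy chain gene and is not wild-type. CD23Cre becomes active in splenic transitional B cells, and the labels give neither age nor sex for these samples.

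MAP kinases carry signals from surface receptors, in B cells above all the B cell antigen receptor, through Ras, Raf and MEK to ERK, and along parallel routes to JNK and p38. The dual-specificity phosphatases (DUSPs) switch a MAP kinase off by removing phosphate from the threonine and the tyrosine of its activation loop. Many of them are transcribed in response to the same kinases, which closes a negative feedback loop. Sprouty and Spred proteins act further upstream, where they limit activation of Ras and Raf. The study sorted these cells to look for signaling pathways that could accompany a change in surface activation markers, and the feedback genes are one readout of such pathways at the level of mRNA.

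Because promoters of this family hold well-known response elements, the RefSeq windows from 250 bases before to 50 bases after the annotated transcription start (GRCm38.p6) were examined for 9 members with a window in the table. Dusp4, the only member higher in fl/fl by the 1.5-fold used below, had no window. A total of 5 are printed here. They are Dusp1, which was lower in fl/fl, and Dusp6, which was higher by slightly less than that fold. The others are Dusp2, the most abundant member, Dusp5, which holds a pair of CArG boxes (the site of serum response factor), and Spred2, the more abundant Spred gene. Capitals mark matches on either strand to the cAMP response element half-site TGACG, its full form TGACGTCA, the ETS core CCGGAA, the GC box GGGCGG, the E-box CACGTG, the TATA box TATAAA and the CArG box.
Dusp1, chr17:26508423-26508722, minus strand: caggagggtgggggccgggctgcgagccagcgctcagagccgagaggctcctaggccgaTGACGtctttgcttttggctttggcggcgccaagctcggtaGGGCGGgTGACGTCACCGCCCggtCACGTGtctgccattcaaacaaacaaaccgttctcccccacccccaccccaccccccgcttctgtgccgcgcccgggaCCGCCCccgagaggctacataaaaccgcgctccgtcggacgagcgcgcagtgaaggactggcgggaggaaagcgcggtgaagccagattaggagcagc
Dusp2, chr2:127335909-127336208, plus strand: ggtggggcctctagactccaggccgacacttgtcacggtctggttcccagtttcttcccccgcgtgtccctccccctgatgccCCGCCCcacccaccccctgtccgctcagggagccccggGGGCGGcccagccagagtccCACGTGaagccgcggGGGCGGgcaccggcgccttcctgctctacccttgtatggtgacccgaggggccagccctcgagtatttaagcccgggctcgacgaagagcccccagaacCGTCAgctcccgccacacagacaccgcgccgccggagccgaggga
Dusp5, chr19:53528895-53529194, plus strand: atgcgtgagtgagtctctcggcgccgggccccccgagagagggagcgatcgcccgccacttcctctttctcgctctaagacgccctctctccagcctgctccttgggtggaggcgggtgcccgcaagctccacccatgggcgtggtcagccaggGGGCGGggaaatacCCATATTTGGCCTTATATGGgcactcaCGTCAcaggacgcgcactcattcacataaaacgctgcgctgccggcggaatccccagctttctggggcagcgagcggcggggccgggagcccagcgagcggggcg
Dusp6, chr10:99262981-99263280, plus strand: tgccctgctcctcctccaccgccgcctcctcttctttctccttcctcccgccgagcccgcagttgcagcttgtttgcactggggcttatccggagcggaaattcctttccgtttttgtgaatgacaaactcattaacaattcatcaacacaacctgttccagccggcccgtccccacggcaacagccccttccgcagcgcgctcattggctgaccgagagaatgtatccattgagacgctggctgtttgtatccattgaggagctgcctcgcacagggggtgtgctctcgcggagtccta
Spred2, chr11:19924192-19924491, plus strand: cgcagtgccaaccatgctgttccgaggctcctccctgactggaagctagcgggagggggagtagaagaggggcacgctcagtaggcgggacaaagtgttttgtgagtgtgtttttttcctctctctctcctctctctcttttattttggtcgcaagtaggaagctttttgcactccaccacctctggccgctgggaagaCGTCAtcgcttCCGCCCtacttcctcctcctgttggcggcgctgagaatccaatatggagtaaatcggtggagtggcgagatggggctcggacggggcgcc

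The Dusp1 window held the full cAMP response element, which begins 143 bases before the start and contains 2 overlapping half-sites, and a further half-site that begins 191 bases before it. The full element was found in 1 of the 9 member windows and in 1.79% of the 32851 windows of the table. The half-site was found in 4 member windows (Dusp1, Dusp2, Dusp5 and Spred2) and in 20.8% of all windows. The CArG boxes of Dusp5 begin 82 and 72 bases before the start and adjoin each other; the motif was found in 1 of 9 member windows and 1.63% of all windows. GC boxes were the commonest match, with 7 of 9 member windows and 35.7% of all windows. E-boxes were found in the windows of Dusp1 and Dusp2 and in 7.15% of all windows, the ETS core in that of Spry2 alone among the members and in 14.9% of all windows, and the TATA letters in 0 member windows and 13.6% of all windows. The Dusp6 window held 0 matches to these motifs, which says only that the letters are absent from this stretch. GC content of the printed windows ranged from 57% for Spred2 to 70.7% for Dusp2, against a median of 52.7% over all windows.

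**Figure D1:**
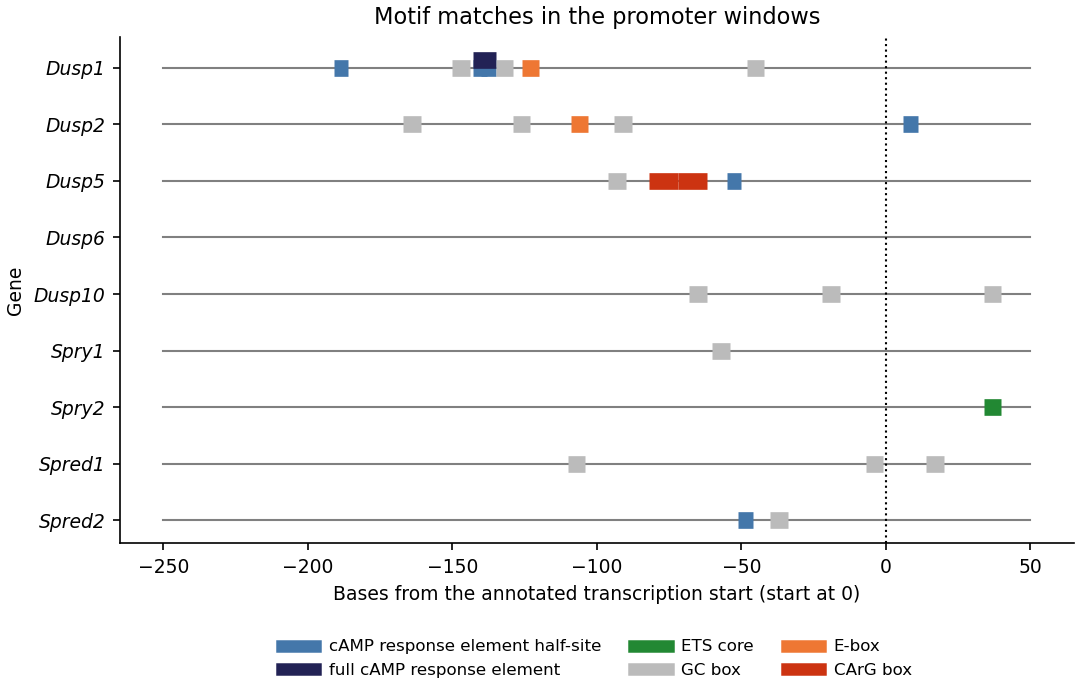
Motif matches in the promoter windows of 9 members, from 250 bases before to 50 bases after the annotated transcription start (x axis, bases). Each line is 1 gene and each colored block a match on either strand; the full cAMP response element is seen in Dusp1 and the adjoining CArG boxes in Dusp5, and the line of Dusp6 is empty.

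The deposited table gives 1 value per entry and genotype, as FPKM, a fragment count scaled to transcript length and to library size, which the authors had pooled over the 3 samples of that genotype. Every FPKM below is this pooled value. The spread between mice therefore cannot be seen in these values, and no n or standard deviation can be attached to a gene. From them alone, no difference can be said to exceed the spread between replicates. The paper lists Dusp1 among the genes significantly downregulated in fl/fl, by the authors' own test, which was not used here. The log2 ratio is log2(fl/fl FPKM + 1) minus log2(wt/fl FPKM + 1), which understates the change of genes near or under 1 FPKM. A gene was counted as lower or higher when the values with 1 FPKM added differed by at least 1.5-fold, among the 9879 genes whose mean over both genotypes reached 1 FPKM. The targeted gene Myh9 had 50.6 FPKM in wt/fl against 21.1 FPKM in fl/fl, or 41.7% of the wt/fl value, and all 10 listed B cell markers were detected in both genotypes, led by Cd79b (1638 and 1739 FPKM) and Cd79a (1098 and 1115 FPKM). Of these 10, 8 had a ratio above 0 and 2 below. The highest log2 ratio, 0.42, was that of Fcer2a, the gene of CD23, at 439 and 588 FPKM summed over 7 entries, within the fold used. Neutrophil, erythroid and some plasma cell transcripts were lower in fl/fl, with values given beside Dusp1 below.

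Of the 10 members, 7 passed the filter on low values, and 3 (Dusp5, Spry1 and Spry2) lay under it. Among the 7, Dusp1 was lower in fl/fl by the fold used, 1 was higher (Dusp4) and 5 lay within it. Across all genes tested, 1.53% were lower and 0.790% were higher. The share was smaller among the 3968 genes between 5 and 20 FPKM, where Dusp1 and Dusp4 lie, with 0.932% lower and 0.403% higher. The members did not move as one block. The ratio was above 0 for 5 of the 7 and below 0 for 2, where 50.5% of all genes tested were above 0 and 49.5% below. The median log2 ratio was 0.23 over the 7 and 0.05 over all 10 members, beside a median of 0.0026 over all genes tested.

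**Figure D2:**
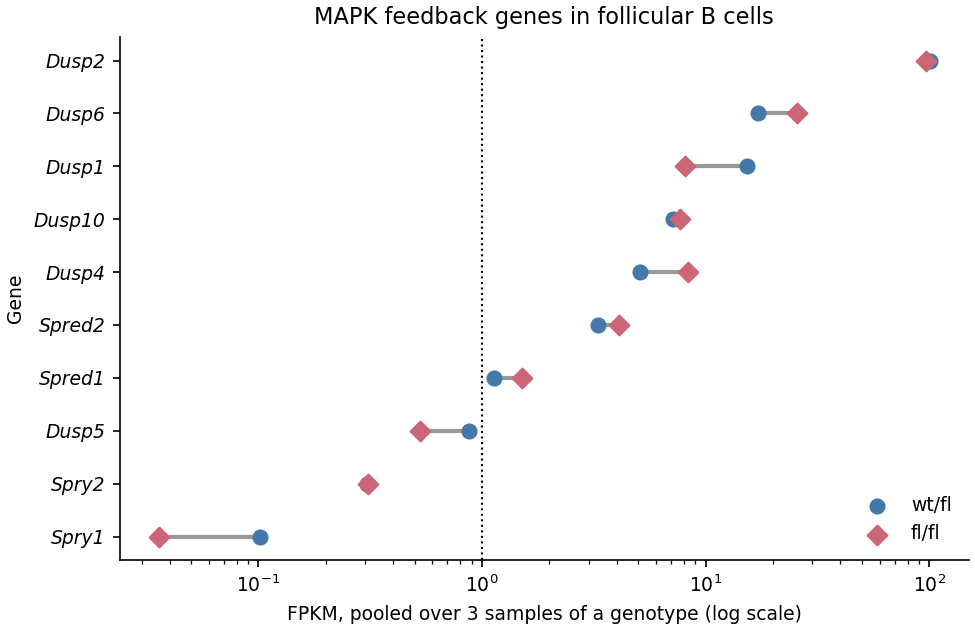
Pooled FPKM (x axis, log scale) of the 10 members in wt/fl (circles) and fl/fl (diamonds), ordered by mean level; each point is 1 authors' value pooled over 3 samples and has no error bar. Dusp1 lies to the left in fl/fl (8.12 against 15.3 FPKM), Dusp4 and Dusp6 to the right, and the points of Dusp2 nearly coincide; the dotted line marks 1 FPKM.

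Dusp1 encodes a nuclear phosphatase of p38, JNK and ERK and is a classical immediate-early gene (chr17:26642535-26645417 in the table, mouse build mm9). It had 15.3 FPKM in wt/fl against 8.12 FPKM in fl/fl. The fl/fl value was 53.1% of the wt/fl value, a log2 ratio of −0.84, which ranks as the 67th lowest of the 9879 genes tested. In bulk RNA of sorted cells, fewer cells that express a gene and less RNA per cell cannot be told apart. Dusp1 was close to Dusp6 in wt/fl, where Dusp6 was 1.12 times Dusp1, whereas in fl/fl Dusp6 was 3.17 times Dusp1. Against Dusp4 the order changed, from a Dusp1 level 2.99 times that of Dusp4 in wt/fl to 0.975 times in fl/fl.

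Neutrophil, erythroid, some plasma cell and several chaperone transcripts were lower in fl/fl, as Dusp1 was, while the macrophage and T cell lists each held genes on both sides of 0. Beside the counts that follow, 1.53% of all genes tested were lower by the fold used and 49.5% had a ratio below 0. Of 15 listed neutrophil markers 13 were in the table, with a summed level of 387 FPKM in wt/fl against 73.3 FPKM in fl/fl. All 9 that passed the filter were below 0 and 7 were lower by the fold used, among them S100a9 (175 and 34.5 FPKM), S100a8 (145 and 25.8 FPKM), Camp (15.3 and 1.70 FPKM), Ngp, Retnlg, Lcn2 and Ltf. Cxcr2 (5.99 and 4.96 FPKM) and Csf3r (2.32 and 1.51 FPKM) also passed the filter and were within the fold used. Elane and Mpo, enzymes of primary granules, lay far under the filter, with 0.119 and 0.0916 FPKM in wt/fl, and are listed at 0 in fl/fl. The 7 erythroid markers in the table summed to 68.5 and 15.4 FPKM, led by Beta-s (52.0 and 7.08 FPKM) and Car2 (11.7 and 6.91 FPKM), of which the globin has near-identical copies that share fragments. The 6 plasma cell markers summed to 118 and 107.5 FPKM, where Igj (5.40 and 0.617 FPKM) and Sdc1 (2.30 and 1.13 FPKM) were lower by the fold used and Irf4 (60.8 and 58.9 FPKM) and Xbp1 (48.8 and 45.9 FPKM), which B cells also express, were not. Macrophage and monocyte markers summed to 91.9 and 62.5 FPKM over 12 genes, most of it Lyz2 (72.6 and 44.9 FPKM), a gene that neutrophils share. Of the 6 that passed the filter 4 were below 0 and 2 above, and only Lyz2 was lower by the fold used. Cd68 had 7.41 and 6.10 FPKM, whereas the complement genes C1qb (1.61 and 2.39 FPKM) and C1qc (1.60 and 2.04 FPKM), named after their values were seen, were higher in fl/fl. The 11 T cell markers summed to 27.6 and 25.6 FPKM, with Lck at 14.5 FPKM in both genotypes and Cd3d at 3.02 and 2.31 FPKM. Chaperone genes, which are induced by heat and by handling, were below 0 in 10 of the 10 that passed the filter, and 5 were lower by the fold used: Hsph1 (129 and 40.3 FPKM), Hspa8 (1574 and 788 FPKM), Hsp90aa1 (387 and 208 FPKM), Dnaja1 (130.0 and 70.9 FPKM) and Hspa1b (3.76 and 2.04 FPKM). Hsp90ab1, the second most abundant of the list, had 936 and 647 FPKM, within the fold used. These lists were written with earlier results of the same table known. The part of other cells, or of handling, in the level of Dusp1 was not tested.

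Dusp2, a nuclear phosphatase known for its abundance in lymphocytes (chr2:127161894-127164113, mm9), was the most abundant member, with 101 FPKM in wt/fl against 97.2 FPKM in fl/fl and a log2 ratio of −0.06. It made up 68.9% of the summed FPKM of the 6 Dusp members in wt/fl and 65.9% in fl/fl. Its level exceeded that of 96.9% of the gene names in the table. The value in fl/fl was 96.2% of that in wt/fl, beside 53.1% for Dusp1. Per length, Dusp2 was 6.61 times as abundant as Dusp1 in wt/fl and 11.97 times in fl/fl.

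Dusp4, which encodes a further inducible nuclear phosphatase of ERK and JNK (chr8:35870663-35882948, mm9), had 5.11 FPKM in wt/fl against 8.33 FPKM in fl/fl. The log2 ratio was 0.61, the 66th highest of the genes tested, and the fl/fl value was 163% of the wt/fl value. Dusp4 was thus the only member past the fold used on the higher side, opposite to Dusp1. Dusp5, the ERK-specific nuclear phosphatase whose promoter holds the CArG boxes shown above (chr19:53603807-53615812, mm9), was under the filter, with 0.874 FPKM in wt/fl against 0.526 FPKM in fl/fl. Its log2 ratio was −0.30 with 1 FPKM added and −0.64 with 0.1 FPKM added, which shows how far the added constant sets the value at this level. Summed over Dusp1, Dusp2, Dusp4 and Dusp5, the nuclear inducible phosphatases had 122 FPKM in wt/fl against 114 FPKM in fl/fl. Without Dusp2 the sum was 21.3 and 17.0 FPKM.

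Dusp6 encodes the cytoplasmic phosphatase that is selective for ERK, and its mRNA is widely used as a readout of ERK activity (chr10:98725864-98730123, mm9). ERK activity was not measured in these RNA samples. In follicular B cells of both genotypes on antigen-bearing membrane sheets, the paper saw no significant change in phosphorylated Erk. Dusp6 had 17.2 FPKM in wt/fl against 25.7 FPKM in fl/fl, a difference of 8.56 FPKM, the largest increase of any member in absolute terms. The log2 ratio was 0.557, the 90th highest of those tested and just under the limit of 0.585 that 1.5-fold sets, and the fl/fl value was 149.9% of the wt/fl value with nothing added. The share of Dusp6 in the summed Dusp members was 11.7% in wt/fl and 17.4% in fl/fl, while that of Dusp1 was 10.4% and 5.50%. Dusp10, a phosphatase of JNK and p38 (chr1:185858339-185899515, mm9), had 7.12 FPKM in wt/fl against 7.69 FPKM in fl/fl, a log2 ratio of 0.10. The 6 Dusp members together had 147 FPKM in wt/fl against 148 FPKM in fl/fl (100.7%), a sum made up mostly of Dusp2. Without Dusp2 the sum was 45.55 FPKM in wt/fl against 50.39 FPKM in fl/fl (110.6%). Neither sum nor share was tested.

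**Figure D3:**
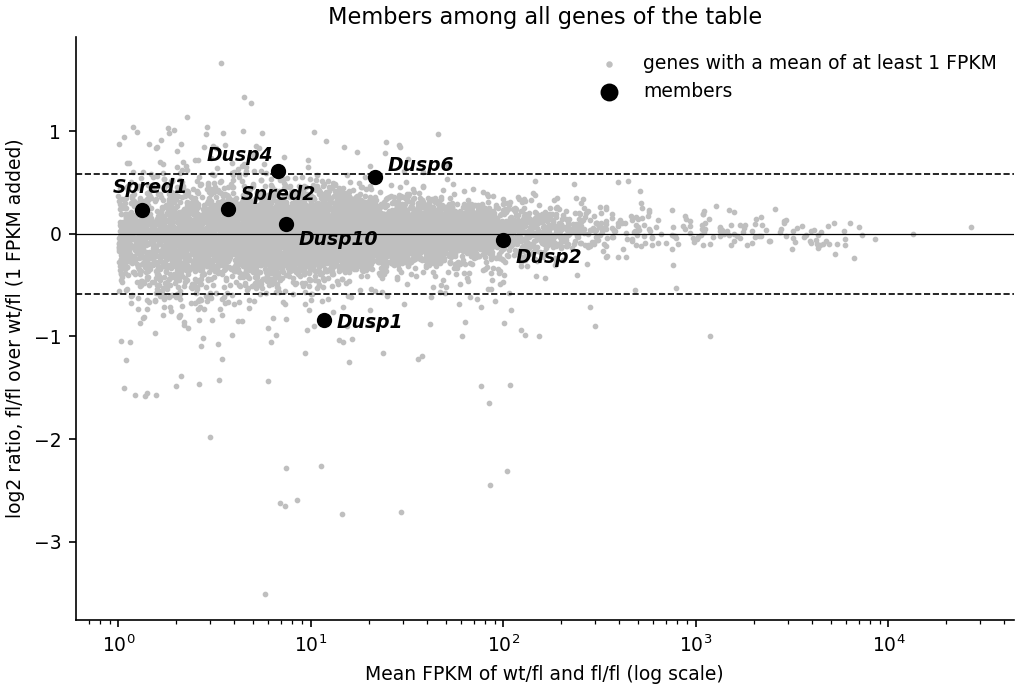
Log2 ratio of fl/fl over wt/fl with 1 FPKM added (y axis) against the mean FPKM of both genotypes (x axis, log scale) for the 9879 genes whose mean reached 1 FPKM (gray) and the 7 members among them (black). Dashed lines mark a 1.5-fold difference; Dusp1 lies below the lower line, Dusp4 above the upper line and Dusp6 just under it.

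The Sprouty genes were barely detected. Spry1 (chr3:37538871-37543521, mm9) had 0.102 FPKM in wt/fl against 0.0357 FPKM in fl/fl, and Spry2 (chr14:106291163-106296036, mm9) had 0.307 and 0.310 FPKM. Both encode feedback inhibitors that growth factor receptors induce, and at these levels the depth, which is unknown, does not allow a difference to be read. The Spred genes, whose products hold Ras-Raf signaling in check at the membrane, were low but above the filter. Spred1 (chr2:116947185-117005072, mm9), whose protein recruits the Ras inactivator neurofibromin, had 1.13 FPKM in wt/fl against 1.51 FPKM in fl/fl, a log2 ratio of 0.23. Spred2 (chr11:19824444-19922600, mm9) had 3.31 and 4.12 FPKM, a log2 ratio of 0.25. Both Spred genes were thus higher in fl/fl by less than the fold used, and their sum went from 4.45 FPKM in wt/fl to 5.62 FPKM in fl/fl. The relation between them was nearly the same in both genotypes, with Spred2 at 2.93 times Spred1 in wt/fl and 2.74 times in fl/fl. Ordered by level in wt/fl, the members ran from Dusp2 through Dusp6, Dusp1, Dusp10, Dusp4, Spred2, Spred1, Dusp5 and Spry2 to Spry1. With no spread between mice, this order was not tested, and neighbors with close levels cannot be called different. The mean of the highest member was 1443 times that of the lowest.

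Further phosphatases and inhibitors of the same families were examined from a list written with earlier results of these data known. Of 7 other phosphatases that act on MAP kinases, 4 passed the filter and 0 were past the fold used in either direction. With 1.53% of all genes tested lower and 0.790% higher, so short a list would hold few or none in any case. Dusp7, a cytoplasmic ERK phosphatase and close relative of Dusp6, had 26.8 FPKM in wt/fl against 28.2 FPKM in fl/fl, so it exceeded Dusp6 in both genotypes and showed a log2 ratio of 0.07. Dusp3 had 7.65 and 5.46 FPKM, a log2 ratio of −0.42, the lowest of the list. Dusp16, a phosphatase of JNK and p38, has 2 entries that differ in coding sequence. The entries had 4.61 and 4.96 FPKM and 5.03 and 3.06 FPKM, with log2 ratios of 0.09 and −0.57, and they summed to 9.63 and 8.03 FPKM. Dusp22 had 23.8 and 27.4 FPKM in all, with 5.95 and 5.28 FPKM in its smaller entry and 17.9 and 22.1 FPKM in its larger one. Dusp8 and Dusp14 were under 0.1 FPKM in both genotypes and Dusp9 is listed at 0. Of the other Sprouty and Spred genes, Spry4 had 0.127 and 0.297 FPKM, Spred3 had 0.0954 and 0.0515 FPKM, and Spry3 is listed at 0 in both genotypes.

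The kinase cascades that these inhibitors control showed 0 genes past the fold used with 1 FPKM added. Over all genes tested, 1.53% were lower and 0.790% higher, so lists of this size would hold few or none in any case. In the ERK cascade, 20 of 21 listed genes were in the table and passed the filter, 13 with a ratio above 0 and 7 below, with a median log2 ratio of 0.03 and a range from −0.24 to 0.47. The highest ratio was that of Ksr1, a scaffold of the cascade named after its value was seen, at 1.02 and 1.81 FPKM, and it passed the fold when 0.5 or 0.1 FPKM was added instead. The most abundant by the mean of both genotypes were Rasgrp3, a Ras activator downstream of the antigen receptor (124 FPKM in wt/fl against 156 FPKM in fl/fl), and Map2k1, which encodes MEK (71.7 and 80.3 FPKM). The 5 Ras GTPase activators in the table had a median log2 ratio of 0.01, with Rasal3 at 71.2 and 68.1 FPKM and Rasa3 at 68.7 and 60.1 FPKM. The 17 JNK and p38 cascade genes that passed the filter ranged from −0.30 to 0.34 with a median of 0.0045. When entries were taken one by one, 1 lower and 1 higher entry passed the fold, beside 3.37% and 2.86% of all entries tested. The JNK and p38 list was led by Map3k1 (92.8 and 93.1 FPKM) and the p38 gene Mapk11 (49.3 and 56.0 FPKM).

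Of 22 listed MAPK-responsive genes, 19 passed the filter. By the fold used 0 were lower and 0 higher, beside 1.53% and 0.790% of all genes tested. The log2 ratios of the 19 were above 0 for 11 and below 0 for 8, with a median of 0.02, and ran from −0.50 to 0.37. The most abundant, Zfp36, a gene for an mRNA decay factor, had 336 FPKM in wt/fl against 348 FPKM in fl/fl, and Ier5 had 162 and 204 FPKM. With 1 FPKM added, Dusp1 lay below, and Dusp4 and Dusp6 above, the whole range of these 19 genes, which leaves out the listed genes under the filter. These members have the ratios furthest from 0. Members and list were also chosen with values known, so this placing is a description and no test. The extremes of the range of the 19 were Fos, an immediate-early transcription factor gene, at 13.1 and 9.02 FPKM, and Phlda1 at 1.65 and 2.43 FPKM, both looked up after the range was seen. With nothing added, Phlda1 in fl/fl was at 147% of its wt/fl value, close to the 149.9% of Dusp6. On the lower side, Fosl2 (0.402 and 0.139 FPKM) and Atf3 (0.207 and 0.0639 FPKM) were at 34.6% and 30.9%, below the 53.1% of Dusp1. Ier3 (0.107 and 0.0742 FPKM) was at 69.35%. All of these listed genes lie under the filter, where a difference cannot be read with depth unknown.

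**Figure D4:**
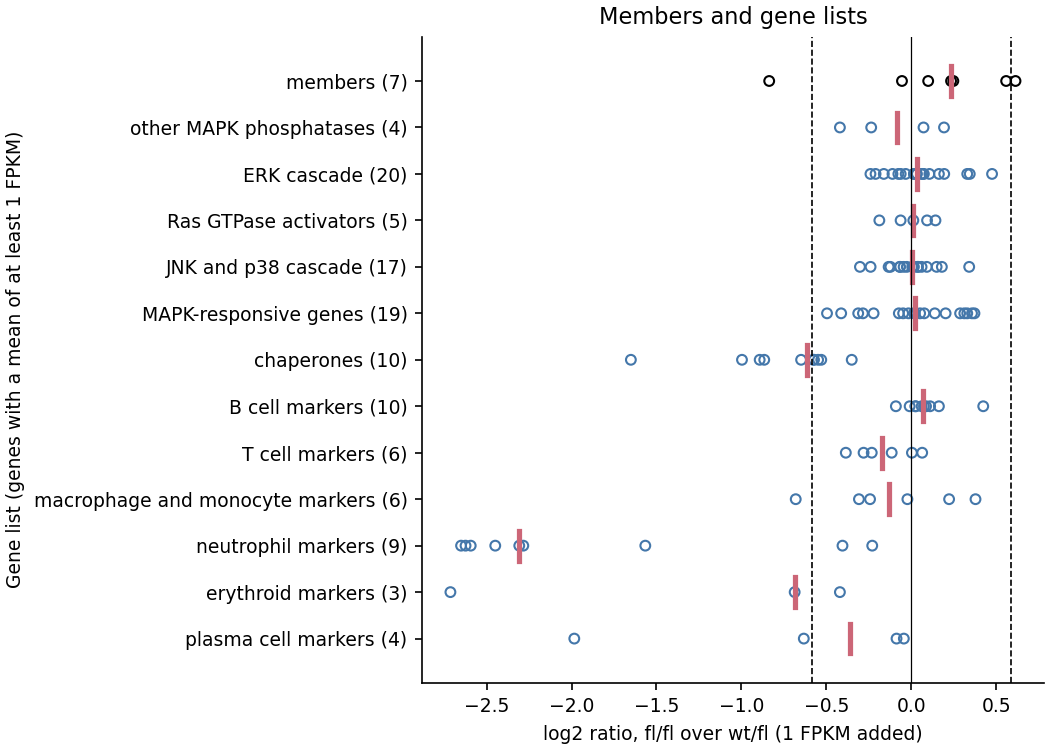
Log2 ratio of fl/fl over wt/fl with 1 FPKM added (x axis) for the members and for 12 gene lists (y axis, in brackets the number of genes whose mean reached 1 FPKM). Each circle is 1 gene and each bar the list's median; the kinase cascades and MAPK-responsive genes lie between the dashed 1.5-fold lines, while most neutrophil markers and 5 of 10 chaperones lie below the lower one.

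The genes whose pair of values lay nearest to that of Dusp1 were found by Euclidean distance in log2(FPKM + 1) over the 2 genotypes. They were Crem, the gene of a cAMP response element modulator (14.8 FPKM in wt/fl against 7.74 FPKM in fl/fl, distance 0.078), Kcnj13 (14.2 and 8.67 FPKM, 0.13) and Wdfy1 (15.2 and 9.41 FPKM, 0.19). The value of Crem is a sum over 15 entries. A likeness over 2 pooled values describes level and ratio only.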

How the data were processed

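Processed values of 6 samples, from 3 wt/fl and 3 fl/fl mice, were used, in 1 deposited table of 25017 entries, where transcripts that share a coding sequence form 1 entry. The authors deposited FPKM as 1 pooled value per genotype. RNA was amplified with the Ovation RNA-Seq system V2, and the submitters' processing notes name Bowtie, TopHat and Cufflinks without versions. Those notes name mm10 and GRCm38, but 0 of 11 positions checked overlapped the same gene on GRCm38 (GENCODE M21), and 118 entries lie on sequences named random, as in mm9, so positions are given as mm9. RefSeq promoter windows are on GRCm38.p6 and were never joined to table positions. The table also holds the authors' fold changes, test statistics, p-values and q-values, which were not used.

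FPKM was summed per gene name (Python 3.11.15, pandas 2.3.3). A pseudocount of 1 FPKM, a minimum mean of 1 FPKM and a 1.5-fold difference were used. Read depth is unknown: FPKM times annotated transcript length was densest at 0.0299 in both genotypes, but only 28.2% (wt/fl) and 32.3% (fl/fl) of low values lay within 0.1 of a whole multiple of it, so reads could not be recovered. Members, lists and fold limits were chosen with earlier results of these data known. Named were all members and family relatives, Myh9, and in each list the genes past 1.5-fold and the 2 most abundant, plus the 3 genes nearest to Dusp1. Elane, Mpo, Cxcr2, Csf3r, C1qb, C1qc, Fcer2a, Ksr1, Fos, Phlda1, Fosl2, Atf3 and Ier3 fall outside this rule and were named after their values were seen. Alternatives were pseudocounts of 0.5 and 0.1 FPKM, no filter, a mean of at least 5 FPKM, a fold of 2, upper quartile scaling, subtraction of the median ratio and entries taken one by one.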

Additional observations from a re-analysis of the deposited data

How the results depend on the processing

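Across 8 alternatives, 53 of 54 recomputed log2 ratios of the members above the filter stayed within 0.1 of the reported value, and 0 changed sign. This tolerance was used because no spread between replicates was given with the pooled values. Only the pseudocounts and the scalings could change these ratios. The scalings moved each by far less than 0.1, so only the pseudocounts put the tolerance to use. The filter, the 5 FPKM minimum, the fold and entries taken one by one could not change the ratios, because each member has 1 entry. Members under the filter are not counted here: with a pseudocount of 0.1 FPKM, Dusp5 went from −0.30 to −0.64 and Spry1 from −0.09 to −0.57. The exception among the 54 was Spred1, at 0.38 with a pseudocount of 0.1 FPKM. Dusp1 ranged from −0.90 to −0.84, Dusp4 from 0.61 to 0.70 and Dusp6 from 0.550 to 0.581, so that Dusp6 stayed under the 1.5-fold limit of 0.585 in each of the 8. At a fold of 2, 0 members were lower and 0 were higher, beside 0.405% and 0.0911% of all genes tested. The median over the members was 0.051 with no filter and 0.098 at a mean of at least 5 FPKM, where 10 and 5 members entered. Over all genes, the counts were 151 lower and 78 higher (1.53% and 0.79%). They became 256 and 158 (2.59% and 1.6%) with a pseudocount of 0.1 FPKM and 67 and 26 (0.866% and 0.336%) at a mean of at least 5 FPKM. At a fold of 2 they were 40 and 9, and 385 and 327 (3.37% and 2.86% of entries) when entries were taken one by one. Medians of 3 lists changed sign: T cell markers, from −0.17 to 0.0029 under the 5 FPKM minimum, the JNK and p38 cascade, from 0.0045 to −0.0026 with upper quartile scaling, and MAPK-responsive genes, from 0.02 to −0.0015 with no filter. Scaling moved the median of all genes by less than 0.1. No paired analysis was possible because the table holds 1 pooled value per genotype, and for the same reason no sample could be left out. With depth unknown, Spry1, Spry2 and Dusp5 cannot be compared between the genotypes.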
